A study of Homo sapiens with 13 samples.

Results

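The genes described here make the protein parts of plasma lipoproteins or load lipid onto them. A list of 10 genes was matched to the array rows whose annotation gave the symbol alone, and 9 genes were found: APOA1, APOA2, APOB, APOC1, APOC3, APOE, APOH, APOM and MTTP. LIPC, which encodes hepatic lipase, is the tenth and was not analysed here. The 9 genes had 13 rows, the row with the highest mean over all arrays stood for each gene, and they are 9 of the 18377 genes tested. The second study line, HepG2S1, was made from HepG2, a human hepatoblastoma line, by raising sorafenib slowly over months and keeping the cells in the drug, per the labels. Sorafenib, dissolved in DMSO, is a drug for liver cancer that blocks several kinases. RNA from 13 flasks was measured on 13 Affymetrix whole-transcript arrays after 72 h of culture. The study asked how lasting drug exposure, drug withdrawal and low oxygen changed gene expression.

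The control group was HepG2 without sorafenib at 20% O2 (n = 3). HepG2S1 was kept with 6 µM sorafenib at 20% O2 (n = 4), withdrawn from sorafenib at 20% O2 (n = 3), or kept with 6 µM sorafenib at 2% O2 (n = 3). All 13 flasks shared a medium with fetal calf serum, insulin and dexamethasone. HepG2S1 is 1 derived line and no HepG2 flask received sorafenib or 2% O2, so that the line, its drug history and, in the drug groups, the drug itself cannot be told apart when HepG2S1 is set against HepG2. The labels do not say whether flasks came from separate cultures, and p-values measure the spread between flasks only.

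Hepatocytes package triglyceride and cholesterol with apolipoprotein B into very low density lipoprotein, and the microsomal transfer protein loads that lipid in the endoplasmic reticulum. Apolipoproteins A-I and A-II form high density lipoprotein, while the smaller C and E apolipoproteins move between particles and set how lipases and receptors act on them. HepG2 is widely used to study this secretion because it makes most of these proteins.

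Sequence is shown for 4 of the 6 members that differed by 16-fold or more between the lines. It is the stretch in which motifs of liver factors were sought. APOB and APOC3, the others, had no promoter window. Each line gives the 250 bases before an annotated transcript start, 5′ to 3′ on the gene's strand, from RefSeq promoters of GRCh38.p14. APOA2 is at chr1:161223629-161223878 on the minus strand, APOH at chr17:66229416-66229665 on the minus strand, APOC1 at chr19:44914422-44914671 on the plus strand and the second MTTP start at chr4:99574574-99574823 on the plus strand. Capitals mark the motif matches described next.
APOA2: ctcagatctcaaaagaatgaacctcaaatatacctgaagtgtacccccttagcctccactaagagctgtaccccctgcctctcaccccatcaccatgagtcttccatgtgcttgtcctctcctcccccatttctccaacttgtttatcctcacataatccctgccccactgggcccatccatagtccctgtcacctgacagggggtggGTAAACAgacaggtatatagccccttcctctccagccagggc
APOH: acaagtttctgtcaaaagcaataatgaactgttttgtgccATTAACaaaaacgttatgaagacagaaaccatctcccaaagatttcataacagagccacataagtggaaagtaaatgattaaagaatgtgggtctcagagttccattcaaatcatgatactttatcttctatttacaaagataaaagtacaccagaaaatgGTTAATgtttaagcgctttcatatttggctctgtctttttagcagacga
APOC1: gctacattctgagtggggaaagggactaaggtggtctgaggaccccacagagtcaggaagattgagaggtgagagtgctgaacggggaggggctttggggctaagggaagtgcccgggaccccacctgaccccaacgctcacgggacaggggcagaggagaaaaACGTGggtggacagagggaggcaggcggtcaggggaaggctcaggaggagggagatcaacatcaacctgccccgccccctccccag
MTTP, second start: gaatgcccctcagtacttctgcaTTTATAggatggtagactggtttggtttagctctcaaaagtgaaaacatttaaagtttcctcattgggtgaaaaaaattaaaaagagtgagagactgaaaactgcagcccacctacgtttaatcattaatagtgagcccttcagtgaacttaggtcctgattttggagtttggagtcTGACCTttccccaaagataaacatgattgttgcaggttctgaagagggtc

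6 motifs were sought on both strands over 300 bases, the 250 shown here and the 50 that follow, in 9 windows of 6 members. APOA1, APOB and APOC3 had no window and were not searched. APOH held the HNF1 motif GTTAAT at positions -49 to -44 and, on the other strand, at -210 to -205, counted from the start. This letter string occurred in 6.88% of all 35116 promoters. APOA2 held the FOXA site TGTTTAC on the other strand at -42 to -36, which 3.42% of promoters held. The second MTTP window held the nuclear receptor motif AGGTCA on the other strand at -50 to -45 (13.8% of promoters) and the TATA box TATAAA on the other strand at -227 to -222 (11.5%). APOC1 held the HIF core ACGTG at -86 to -82, a string in 21.4% of promoters. The HNF4 motif CAAAGT, in 11.9% of promoters, was matched in APOH alone among the members searched, past the start. Each motif was thus found in 1 of the 9 member windows, and a match describes letters, not a bound site. The APOH window was 35.0% G and C, at the 4.3 percentile of all promoters, whose median was 58.7%. The other member windows lay between the 14.9 percentile (second MTTP start) and the 69.6 percentile (second APOE start).

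Values are log2 array values, and a gene was called at a limma adjusted p under 0.05 (Benjamini-Hochberg over 18377 genes) in 1 fit over the 4 groups. The median lower quartile of the arrays, 5.76, served as the floor, below which a level was taken as near background. Array medians lay between 7.30 and 7.42. Over all 28926 array rows, the correlation within groups lay between 0.9954 and 0.9983. That among the HepG2S1 groups lay between 0.9910 and 0.9963, and that of the HepG2 with the HepG2S1 arrays between 0.9134 and 0.9234. Every pair of arrays within a group thus reached at least 0.9954.

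The hepatocyte identity of each line was checked with 16 genes of secreted liver proteins. In HepG2 the 16 had a mean log2 value of 12.26 to 12.27 per array and none lay below the floor. In the HepG2S1 group with sorafenib at 20% O2 that mean was 5.83 to 5.86, 9 of 16 were below the floor, and all 16 were lower than in HepG2 (median log2 fold change -7.05). ALB, albumin, ranged from 12.66 to 12.94 in HepG2 and from 4.98 to 5.25 over the HepG2S1 arrays, and AFP, alpha-fetoprotein, from 13.33 to 13.52 against 4.53 to 4.87. The arrays labelled HepG2S1 thus had these defining markers of HepG2 below the floor, with or without drug. The descent of HepG2S1 from HepG2 is taken from the labels and was not tested, and every difference between the lines below carries that limit. Of 14 hepatocyte enzymes and receptors, 10 were lower and 2 higher, led by CPS1, which starts the urea cycle, at 12.85 against 9.40. Bulk RNA cannot tell fewer cells of a type from less RNA per cell.

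Markers of other cell types moved as well, and their part in the results was not tested. Of 10 biliary and squamous markers 5 were higher and 3 lower in HepG2S1 with sorafenib at 20% O2 than in HepG2. Higher were the biliary KRT7, at 12.93 against 7.02, and the squamous SERPINB5 (11.83 against 5.03), KRT5, SERPINB3 and SFN. Lower were the biliary markers EPCAM (6.99 against 12.19), KRT19 (log2 fold change -4.215) and SOX9 (-2.535). The log2 of this list's summed level was 13.41 to 13.50 in HepG2 and 13.75 to 13.80 in that group. It rests mainly on EPCAM and KRT19 in HepG2, and on KRT7 and SERPINB5 in that group. Of 10 fibroblast and stellate markers 2 were higher, DCN at 10.59 against 5.16 and LUM at 10.21 against 5.20, 2 were lower, RELN at 6.03 against 11.79 and ACTA2 at 9.03 against 11.02, and 6 did not pass, COL1A1, COL1A2 and COL3A1 among them. Of 12 enterocyte markers, the other cell type that makes apolipoprotein B, 1 was higher, ALPI at 9.35 against 8.14, and 6 were lower, led by ANPEP at 6.81 against 12.33 and VIL1 at 6.57 against 10.65. The intestinal sucrase SI lay between 4.11 and 4.31 on every array. Of 9 macrophage and blood markers 1 was higher, CD68 at 12.00 to 12.14 against 11.27 to 11.31 in HepG2. In this list 3 were lower, led by LYZ at 4.73 to 4.82 against 13.09 to 13.15. The summed level of this list rests mainly on LYZ and CD68 in HepG2, while PTPRC was at 4.15 to 4.55 over all arrays. Of 6 endothelial markers 3 were lower. Summed levels ran from 12.93 to 12.99 in HepG2 against 10.65 to 10.80 for the enterocyte list, from 13.57 to 13.62 against 12.27 to 12.42 for the macrophage list, from 12.69 to 12.74 against 12.00 to 12.15 for the fibroblast list, and from 8.65 to 8.84 against 8.34 to 8.50 for the endothelial list.

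All 9 members were lower in HepG2S1 with sorafenib at 20% O2 than in HepG2. The log2 fold change, HepG2S1 minus HepG2, ran from -8.35 for APOH to -3.22 for APOM, with a member median of -4.75 against 0.01 for all genes. Of all genes tested, 27.2% were called lower in this comparison. A fall of 16-fold or more was much rarer, in 0.865% of genes, and 6 of the 9 members had one: APOA2, APOB, APOC1, APOC3, APOH and MTTP. For members near background in HepG2S1 these folds rest on low values, and a bound against a floor is given beside each. For all 9 members, every HepG2 array lay above every HepG2S1 array of all 3 groups, a separation that 22.4% of all genes showed.

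**Figure D1:**
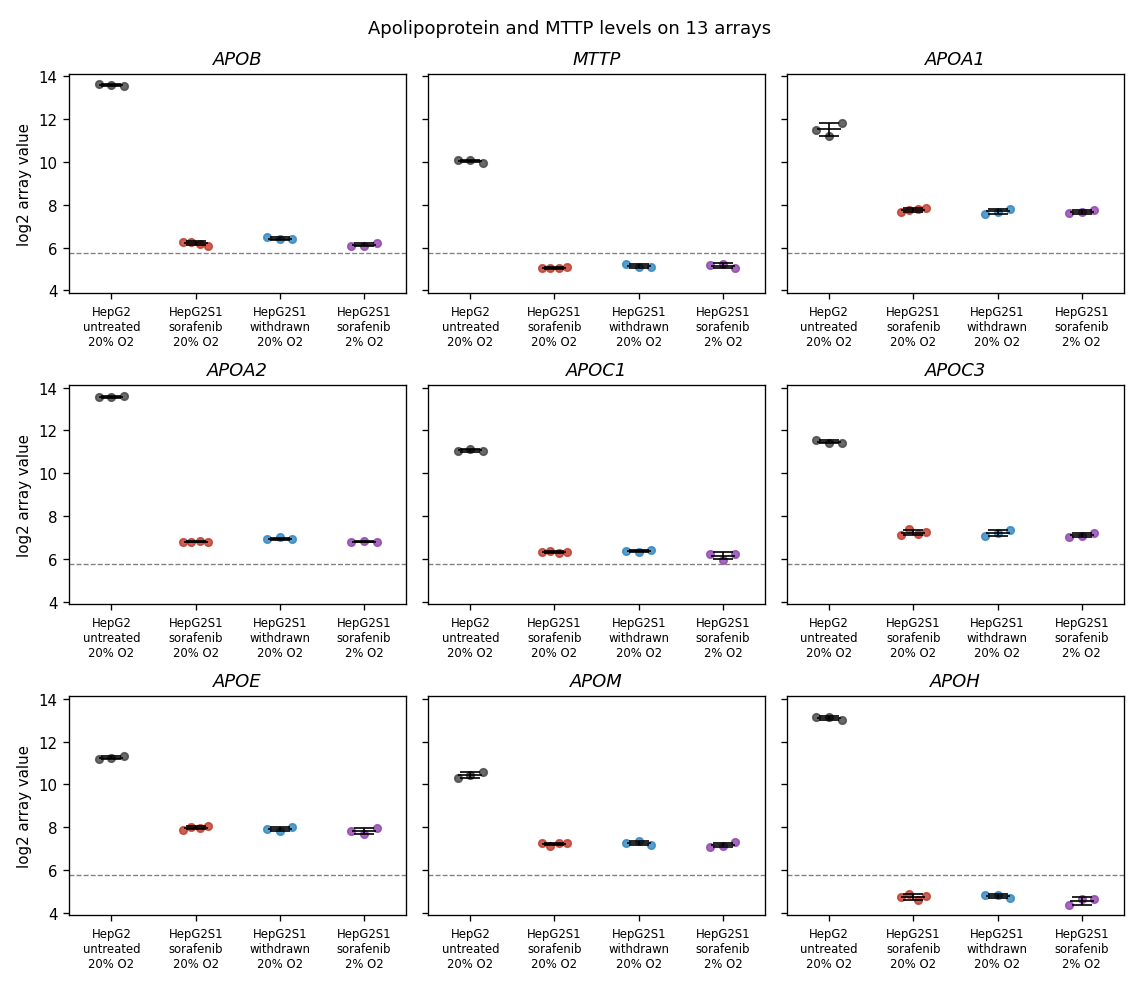
Log2 array value (vertical axis) of each of the 9 members in the 4 groups, 1 point per array, with the group mean and its SD as bars and the floor of 5.76 as a dashed line. The 3 HepG2 points lie far above the 10 HepG2S1 points in every panel, and APOH and MTTP lie below the floor in all HepG2S1 groups.

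The assembly pair came first. APOB encodes the structural protein of very low and low density lipoprotein, and its HepG2 arrays read 13.65, 13.62 and 13.56. HepG2S1 read 6.25, 6.27, 6.19 and 6.07 with sorafenib at 20% O2, 6.50, 6.38 and 6.38 after withdrawal, and 6.08, 6.09 and 6.20 with sorafenib at 2% O2. The HepG2 arrays were thus set apart from the rest by over 7 log2 units, and the withdrawn arrays were the highest of HepG2S1. The log2 fold change of HepG2S1 with sorafenib at 20% O2 against HepG2, as measured, was -7.41 ± 0.06 (SE), 171-fold lower, with an adjusted p of 9.8e-20. A second and higher floor, the 95th percentile of 339 olfactory receptor genes, which liver cells do not make, was 6.78 and lay above APOB in all 3 HepG2S1 groups, and against it APOB was at least 113-fold lower. From high to low the group means were HepG2, withdrawn, sorafenib at 20% O2 and sorafenib at 2% O2, and the last pair in that order overlapped and did not differ beyond the spread of the arrays (-0.07, 95% interval -0.20 to 0.06).

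MTTP encodes the large subunit of the microsomal transfer protein, which hands lipid to apolipoprotein B. HepG2 read 10.07, 10.07 and 9.97. The HepG2S1 arrays read 5.04, 5.02, 5.05 and 5.09 with sorafenib at 20% O2, 5.25, 5.11 and 5.08 after withdrawal, and 5.18, 5.25 and 5.05 at 2% O2. All 10 were below the floor and the 3 HepG2S1 groups overlapped. Set against HepG2, HepG2S1 with sorafenib at 20% O2 was at -4.99 ± 0.06 (adjusted p 2.93e-18). Taken against a floor in place of the measured low value, MTTP was at least 19.4-fold lower by the floor of 5.76 and at least 9.56-fold lower by that of 6.78, the latter under the 16-fold limit. No order among the HepG2S1 groups was read for MTTP, since values under the floor have none.

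Of the high density lipoprotein proteins, APOA1 encodes apolipoprotein A-I, the main one. Its HepG2 values of 11.49, 11.24 and 11.84 had the widest spread of any member there (SD 0.30). HepG2S1 read 7.65, 7.74, 7.82 and 7.85 with sorafenib at 20% O2, 7.57, 7.67 and 7.82 after withdrawal, and 7.60, 7.65 and 7.76 at 2% O2. The 3 HepG2S1 groups overlapped throughout and no pair of them was called. In the same contrast its fold change was -3.76 ± 0.11 (13.5-fold lower, adjusted p 1.07e-13). The order of means was HepG2, sorafenib at 20% O2, withdrawn and 2% O2, with no difference beyond the spread among the last 3.

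APOA2 encodes apolipoprotein A-II, the second protein of high density lipoprotein. HepG2 read 13.54, 13.54 and 13.59. HepG2S1 read 6.80, 6.76, 6.83 and 6.80 with sorafenib at 20% O2, 6.91, 7.00 and 6.92 after withdrawal, and 6.79, 6.81 and 6.79 at 2% O2. The withdrawn arrays were all above the other 7 HepG2S1 arrays, which overlapped each other. The fold change against HepG2 was -6.76 ± 0.05, 108-fold lower, with an adjusted p of 3.73e-20.

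APOM encodes apolipoprotein M, a carrier of sphingosine-1-phosphate on high density lipoprotein. HepG2 read 10.29, 10.46 and 10.58. HepG2S1 read 7.25, 7.13, 7.26 and 7.25 with sorafenib at 20% O2, 7.26, 7.37 and 7.18 after withdrawal, and 7.09, 7.14 and 7.29 at 2% O2. These groups overlapped. The fold change against HepG2 was the smallest of the members, -3.22 ± 0.07 (9.33-fold lower, adjusted p 5.8e-15). The 3 rows of APOM held identical values, so that they are 1 measurement.

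Among the exchangeable apolipoproteins, APOC1 encodes apolipoprotein C-I, an inhibitor of lipid transfer and of particle uptake. HepG2 read 11.02, 11.14 and 11.04. HepG2S1 read 6.31, 6.37, 6.26 and 6.33 with sorafenib at 20% O2, 6.36, 6.33 and 6.39 after withdrawal, and 6.23, 5.96 and 6.24 at 2% O2. The 3 arrays at 2% O2 were the lowest, 1 of them well under its fellows, and the other 2 groups overlapped. APOC1 differed from HepG2 by -4.75 ± 0.07 (27.0-fold lower, adjusted p 1.92e-17), and by at least 19.5-fold against the floor of 6.78.

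APOC3 encodes apolipoprotein C-III, an inhibitor of lipoprotein lipase. HepG2 read 11.54, 11.42 and 11.42. HepG2S1 read 7.10, 7.37, 7.16 and 7.24 with sorafenib at 20% O2, 7.06, 7.22 and 7.33 after withdrawal, and 7.02, 7.08 and 7.20 at 2% O2. All 3 groups overlapped. The fold change against HepG2 was -4.25 ± 0.08 (19.0-fold lower, adjusted p 3.39e-16).

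APOE encodes apolipoprotein E, the ligand by which remnant particles are cleared. HepG2 read 11.20, 11.25 and 11.32. HepG2S1 read 7.88, 8.03, 7.97 and 8.04 with sorafenib at 20% O2, 7.92, 7.82 and 8.01 after withdrawal, and 7.84, 7.70 and 7.96 at 2% O2. These groups overlapped, and APOE lay well above the floor in each. Its difference from HepG2 was -3.28 ± 0.07 (9.68-fold lower, adjusted p 1.95e-15).

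APOH encodes beta-2-glycoprotein I, a plasma protein that binds phospholipid and carries the apolipoprotein name without being a particle's scaffold. HepG2 read 13.13, 13.15 and 13.00. HepG2S1 read 4.71, 4.87, 4.58 and 4.79 with sorafenib at 20% O2, 4.81, 4.85 and 4.69 after withdrawal, and 4.35, 4.66 and 4.66 at 2% O2. All 10 were below the floor. The measured difference from HepG2 was -8.35 ± 0.09 (adjusted p 6.75e-19). It was at least 161-fold lower against the floor of 5.76 and at least 79.3-fold lower against that of 6.78.

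From high to low, the means of APOA2, APOC1, APOM and APOB stood in the order HepG2, withdrawn, sorafenib at 20% O2 and sorafenib at 2% O2. Those of APOC3 and APOE, like APOA1, stood in the order HepG2, sorafenib at 20% O2, withdrawn and 2% O2. The step from HepG2 to the next group was called for each of these 7 genes, and so was the step from withdrawn cells to sorafenib at 20% O2 for APOB and APOA2. No other step between neighbours in these orders was called.

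The other sets of HepG2S1 arrays share the HepG2 arrays with this comparison, so their values are given side by side and not as further support. Against HepG2, all 9 members were lower in the withdrawn cells, where 27% of all genes were called lower, with a median of -4.71 and a range from -8.31 (APOH) to -3.18 (APOM). All 9 were lower at 2% O2 with sorafenib, where 30.6% of all genes were called lower, with a median of -4.88 and a range from -8.54 (APOH) to -3.27 (APOM). The split of calls over all genes at 2% O2 against HepG2 was 50% higher, or 40% when arrays were scaled to a common 75th percentile. APOB was at 0.586% of its HepG2 level with sorafenib at 20% O2, 0.686% after withdrawal and 0.558% at 2% O2 on the linear scale. APOE, which had a lower HepG2 mean than APOB (11.3 against 13.6), was at 10.3%, 9.89% and 9.34% in the same order. APOC1, MTTP and APOM had lower HepG2 means than APOE, at 11.07, 10.04 and 10.44. With sorafenib at 20% O2 they were at 3.71%, 3.15% and 10.7% of HepG2. Whether the APOE signal left in HepG2S1 is expression or background was not tested.

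Within HepG2S1 the differences were small and few. After withdrawal, 2 of 9 members were higher than with sorafenib at 20% O2, against 10.1% of all genes called higher, and 7 were not called. APOB rose by 0.23 ± 0.06 (95% interval 0.10 to 0.36, adjusted p 0.0174), higher in 3 of 3 withdrawn arrays than in all 4 others. APOA2 rose by 0.14 ± 0.05 (0.05 to 0.24, adjusted p 0.0397), with no overlap between the groups. Both calls turned on single arrays. It was lost for APOB without the first withdrawn array (adjusted p 0.0983) or the fourth sorafenib array (0.0572), with a range of 0.0019 to 0.0983 over 18 alternatives. The APOA2 call was lost in 12 of 18 alternatives (0.00685 to 0.197), among them each of the 7 in which 1 array was left out. The intervals of the 7 members without a call reached at most 0.23 upwards, for MTTP and APOH, and -0.31 downwards, for APOA1.

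At 2% O2 against 20% O2, both with sorafenib, 0 of 9 members were called by limma, against 15.2% of all genes called in either direction. By unadjusted p under 0.05, which 5767 of 18377 genes passed, there was 1, APOC1, at a log2 fold change of -0.18 with no overlap between its arrays (95% interval -0.32 to -0.03, adjusted p 0.0876). APOC1 was also the 1 member called when arrays were scaled to a common 75th percentile (adjusted p 0.0402), where its range over 18 alternatives was 0.0402 to 0.395. The log2 fold changes of the 9 members ran from -0.18 (APOH) to 0.11 (MTTP) and 8 of 9 were negative. Their median was -0.09, beside a median over all genes that was also negative, at -0.03. No shared fall is read from these signs. Over all genes 59.3% of calls were higher at 2% O2, but 35.1% after that scaling. The lowest bound of any member's interval was -0.37, for APOH, which lay under the floor in both groups.

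**Figure D2:**
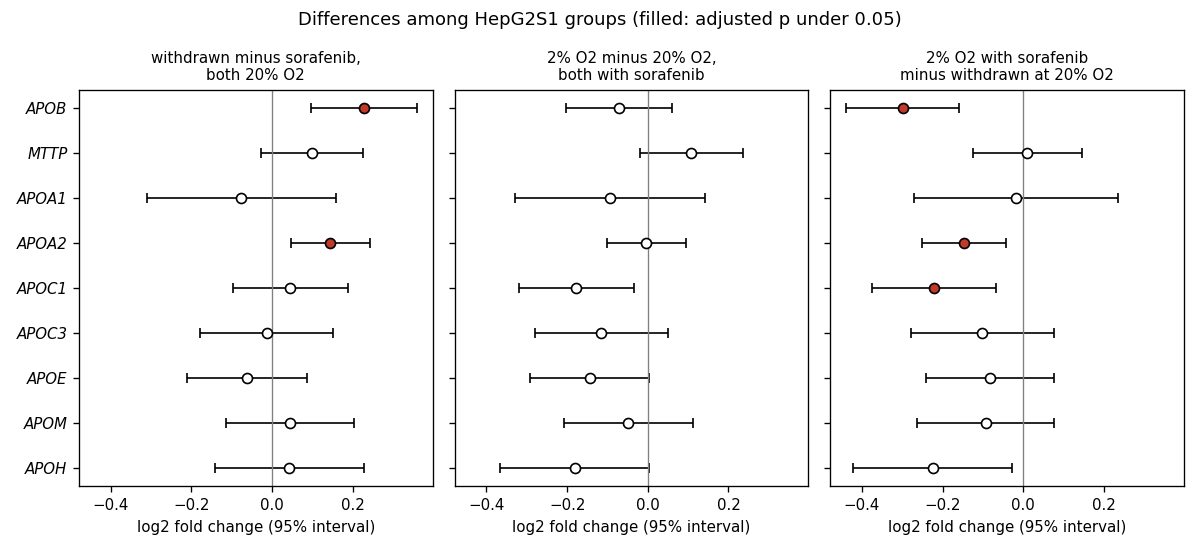
Log2 fold change with its 95% interval (horizontal axis) of each member in the 3 comparisons within HepG2S1, filled where the adjusted p was under 0.05. Filled points are APOB and APOA2 after withdrawal (0.23 and 0.14) and APOB, APOC1 and APOA2 for 2% O2 with sorafenib against withdrawn cells (-0.30, -0.22 and -0.15), and none for oxygen alone.

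Cells with sorafenib at 2% O2 and withdrawn cells differ in drug and oxygen at once. Here 3 of 9 members were lower with drug at 2% O2, against 7.73% of all genes called lower, and 58.4% of all calls were higher (48.2% with 75th percentile scaling). APOB was lower, at -0.30 ± 0.07 (adjusted p 0.00467) and stayed called in all 17 alternatives, with adjusted p from 0.00106 to 0.0284. APOC1 was at -0.22 (adjusted p 0.0428) and APOA2 at -0.15 (adjusted p 0.0474), but these calls were lost in 9 and 11 of 17 alternatives, with adjusted p from 0.0244 to 0.193 and from 0.00917 to 0.187. APOH was at -0.22 without overlap between the groups and was not called (adjusted p 0.112, and 0.0164 with array weights). On the linear scale the APOB level with drug at 2% O2 was 81.3% of that in withdrawn cells, while both stood under 1% of HepG2.

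By the olfactory receptor floor of 6.78, APOB and APOC1 joined APOH and MTTP near background in all 3 HepG2S1 groups. APOA2 lay just above it, with group means of 6.80, 6.94 and 6.80. RMA draws low signals together, and the small differences within HepG2S1 were measured in or near that range.

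The members do not lie in 1 place, and their chromosomal neighbours were compared with them. APOA1 and APOC3 are adjacent in the cluster with APOA4, and APOE and APOC1 are adjacent to each other. The nearest tested genes on either side of the members, 14 genes in all, had a median log2 fold change of -0.22 in HepG2S1 with sorafenib at 20% O2 against HepG2, from -1.32 (CEP112) to 1.07 (DAPP1). Of these 8 were lower, 2 higher and 4 not called, beside 27.2% of all genes called lower and 30.1% called higher. APOA4, next to APOC3, was called lower at -0.22, against -4.25 for APOC3 itself. Its mean was 7.366 in HepG2 and 7.145 in HepG2S1, beside 11.463 and 7.217 for APOC3. APOA4 thus had little room to fall. TOMM40 and CLPTM1, the nearest tested genes outside APOE and APOC1, had log2 fold changes of -0.16 and 0.12, and neither was called. APOC2 and APOC4 were not among the tested genes. TRMT10A, beside MTTP, was at -0.12 and also not called. The member with the smallest fall, APOM at -3.22, lay between BAG6 (-0.30) and C6orf47 (-0.03, not called). Within HepG2S1, 4 of the 14 neighbours were higher after withdrawal and 10 were not called, beside 10.1% of all genes called higher. At 2% O2 against 20% O2, both with sorafenib, 4 were higher and 10 not called, beside 8.99% of all genes called higher.

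**Figure D3:**
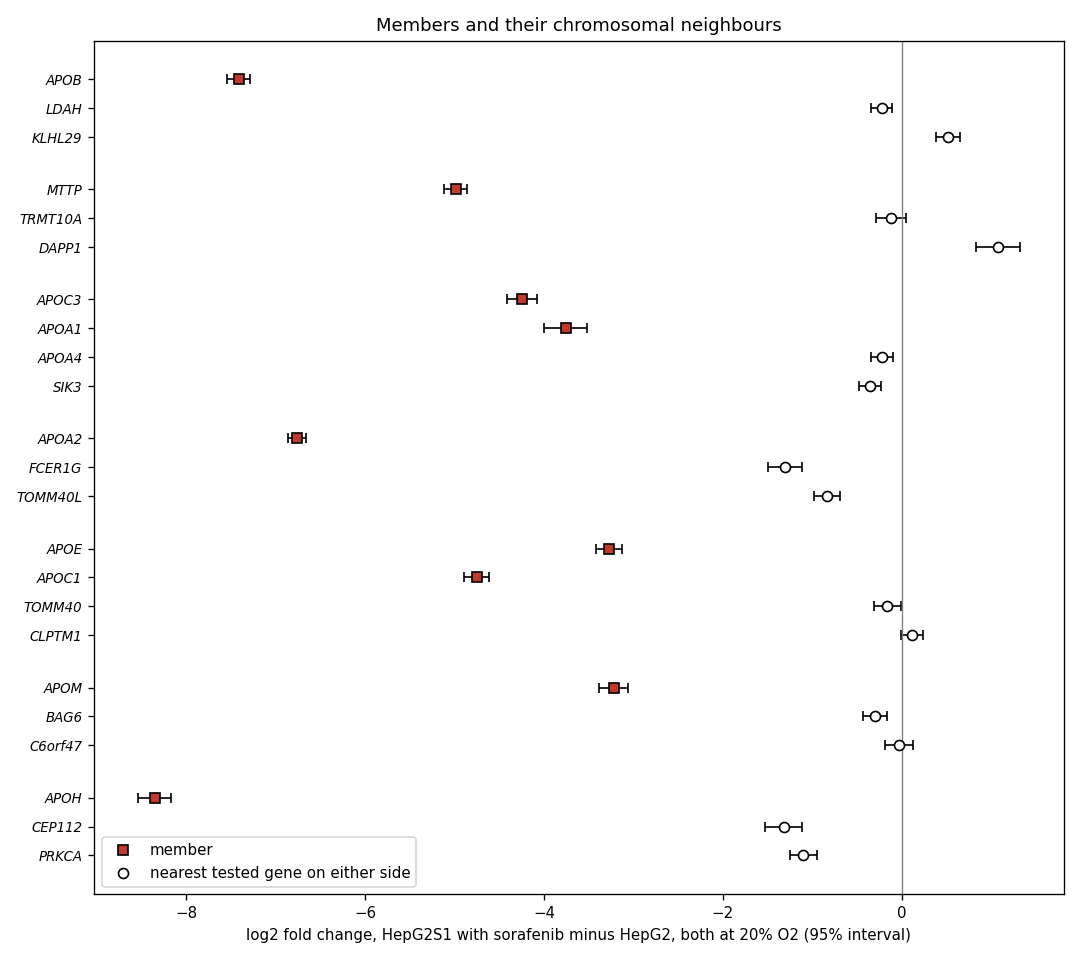
Log2 fold change of HepG2S1 with sorafenib against HepG2, both at 20% O2, with its 95% interval (horizontal axis) for the 9 members (squares) and the nearest tested gene on either side (circles), grouped by locus. Members lie between -8.35 and -3.22 and the 14 neighbours between -1.32 and 1.07.

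Other genes of lipoprotein biology were taken as lists in the same comparison of HepG2S1 with sorafenib at 20% O2 against HepG2. Of 13 other apolipoproteins 8 were lower, 2 higher and 3 not called, with a median of -0.22. APOL1, a trypanolytic serum protein, was lowest at -2.34 ± 0.08, CLU, clusterin, was at -0.98 ± 0.06, and APOA5, which aids lipoprotein lipase, at -0.76 ± 0.09. The 2 that were higher, APOO (1.75 ± 0.06) and APOOL (1.17 ± 0.08), encode proteins of the mitochondrial inner membrane that bear the apolipoprotein name. APOA4 and APOA5 thus differed by under 1 log2 unit, where no member differed by less than 3.22. With a mean of 7.366 in HepG2, APOA4 had little room for a larger fall.

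Genes of particle assembly and secretion were not lower as a group. Of 22, 12 were higher, 7 lower and 3 not called, with a median of 0.17. CIDEB, a droplet protein that helps lipidate very low density lipoprotein, was at -3.29 ± 0.05 and MIA2, a receptor at endoplasmic reticulum exit sites, at -1.83 ± 0.11. TM6SF2, which also acts in lipidation, had a mean level of 7.38 against 8.39 in HepG2 and was called lower. The coat protein SEC24D was higher by 1.32 ± 0.06, KLHL12, which helps enlarge transport carriers, by 0.89 ± 0.05 and MIA3 by 0.87 ± 0.09. SAR1B, the small GTPase that drives chylomicron export, was higher by 0.19 ± 0.06. P4HB, the partner subunit of MTTP in the transfer protein, was at -0.42 ± 0.05, against -4.99 for MTTP.

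Of 16 genes that supply lipid for particles, 11 were lower, 4 higher and 1 not called, with a median of -1.05. PLIN2, a lipid droplet coat, was at -6.72 ± 0.05 and CES1, a carboxylesterase that mobilises stored triglyceride, at -5.08 ± 0.14. SOAT2, the cholesterol esterifying enzyme of hepatocytes and enterocytes, was at -2.76 ± 0.12, while SOAT1, the form found in most cells, was higher by 1.21 ± 0.05. LPIN1, a phosphatidate phosphatase, was higher by 1.37 ± 0.06.

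On the plasma side, 5 of 11 lipases, lipid transfer proteins and their regulators were lower, 2 higher and 4 not called, with a median of -0.20. PCSK6 (-2.94 ± 0.07) and FURIN (-2.42 ± 0.06), proprotein convertases, and LIPG, endothelial lipase (-2.15 ± 0.06), were lowest. PLTP, the phospholipid transfer protein, was higher by 1.41 ± 0.07 and ANGPTL4, an inhibitor of lipoprotein lipase, by 0.97 ± 0.10. LPL, lipoprotein lipase, was at -0.20 and was not called (adjusted p 0.0568). Of 12 receptors and their regulators 9 were lower, 1 higher and 2 not called, with a median of -0.61. CD36, a fatty acid receptor, was at -2.75 ± 0.09 and LRP1, a remnant receptor, at -1.85 ± 0.07, while LRP8, a receptor for apolipoprotein E, was higher by 1.27 ± 0.05. SCARB1, the high density lipoprotein receptor, was called lower at -0.18 ± 0.06.

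Of 8 sterol efflux and uptake transporters 5 were lower, 2 higher and 1 not called, with a median of -0.91. ABCA1, which loads cholesterol onto apolipoprotein A-I, was at -4.55 ± 0.09 and ABCG5, a sterol exporter, at -2.52 ± 0.08. NPC1, which moves cholesterol out of lysosomes, was higher by 0.95 ± 0.04. Among 22 regulators of apolipoprotein genes 19 were lower, 1 higher and 2 not called, with a median of -1.01. PROX1 (-4.47 ± 0.07), NR0B2 (-3.45 ± 0.13), MLXIPL (-3.12 ± 0.09), CREB3L3 (-2.17 ± 0.09) and FOXA2 (a mean of 7.54 against 9.54 in HepG2) were lower, all of them liver transcription factors or cofactors. PPARA, the fatty acid sensing receptor, was called lower at -0.28 ± 0.05, and CEBPB was higher by 0.24 ± 0.06. The lists were counted beside 27.2% of all genes called lower and 30.1% called higher.

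**Figure D4:**
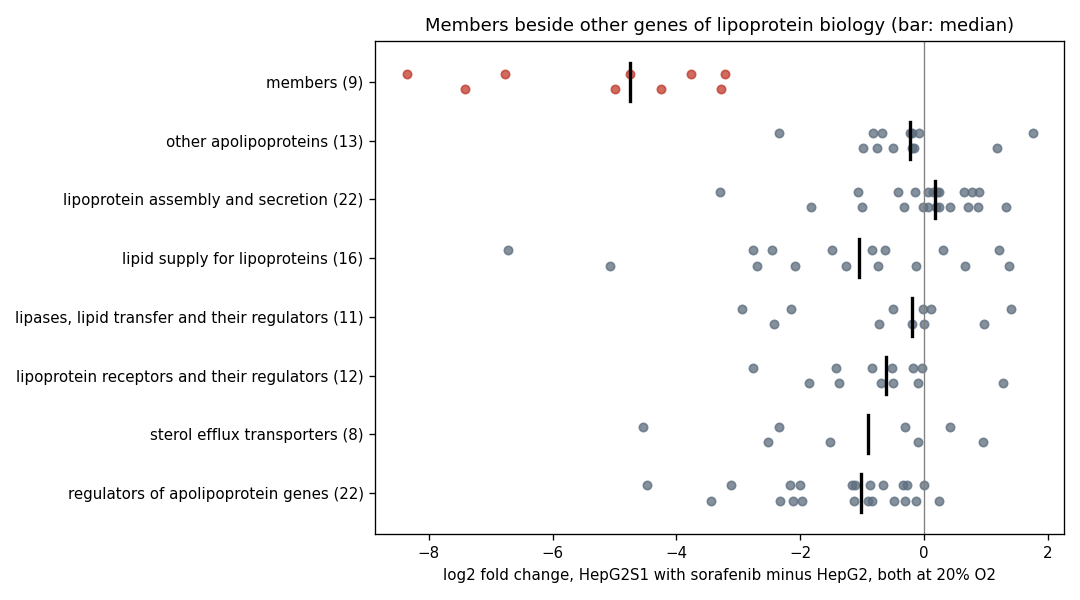
Log2 fold change of HepG2S1 with sorafenib against HepG2, both at 20% O2 (horizontal axis), 1 point per gene, for the 9 members and the 7 lists, with list medians as bars. The member median is -4.75 and the list medians lie between -1.05 and 0.17.

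Some genes of these lists also differed among the HepG2S1 groups. After withdrawal SEC24D (-0.80 ± 0.06), APOL6 (-0.70 ± 0.07), PPARA (-0.56 ± 0.05) and NPC2 (-0.44 ± 0.05) fell. ANGPTL4 rose by 0.55 ± 0.10, CD36 by 0.44 ± 0.09, SREBF1, a driver of lipid synthesis, by 0.44 ± 0.06, and SCARB1 by 0.21 ± 0.06. At 2% O2 with sorafenib ANGPTL4 rose by 2.03 ± 0.10, RORA by 1.36 ± 0.11, LRP1 by 1.26 ± 0.07 and SCARB1 by 0.40 ± 0.06, all against sorafenib at 20% O2. LPIN1 (-0.67 ± 0.06), PPARGC1A (-0.52 ± 0.08), DGAT2, which makes triglyceride (-0.49 ± 0.09), and TM6SF2 (-0.23 ± 0.06) fell. For the assembly and secretion list as a whole 3 of 22 fell after withdrawal and 19 were not called, and at 2% O2 4 rose and 1 fell. P4HB rose by 0.24 ± 0.05 at 2% O2, where MTTP was at 0.11 and was not called. The 22 regulators split into 2 risen and 2 fallen after withdrawal, and into 1 risen and 4 fallen at 2% O2. Over all genes 10.1% rose and 7.9% fell after withdrawal, and 8.99% rose and 6.17% fell at 2% O2.

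The genes with the pattern most like the mean of the 9 members over 13 arrays were DPP4 (Pearson r 0.9999), then CYP24A1, C4BPA, HPD and A2M (each 0.9998). These correlations are set by the gap between the lines, which the 10 HepG2S1 arrays share, and they are a description. Over the 10 HepG2S1 arrays alone, APOB was most like JADE2 (r 0.979), APOA2 most like MIRLET7A2 (0.970) and APOC1 most like NEUROG2 (0.978). Among the members with a level over the floor, APOE was most like KREMEN2 (0.974) and APOA1 most like INSM2 (0.976), over the same 10 arrays. Each of these partners was picked as the highest r among all genes on few arrays, so that the picking itself favours a high r. Shared regulation was not tested. Between members over these 10 arrays the 36 pairwise correlations ran from -0.650 to 0.744 with a median of 0.254, and 27 were positive. Without APOH and MTTP, which lay below the floor, the 21 pairs left ran from -0.232 to 0.744 with a median of 0.298, and 18 were positive.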

How the data were processed

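The 13 samples were grouped by the labels' line, drug and oxygen. The authors deposited 1 table of log2 values per array row, and the submitters' processing notes name RMA, a method that subtracts background, equalises the arrays' distributions and sums up each row's probes. The version of RMA was not given in the sources used here, and the table holds no detection calls, scan dates or batches. Of 28926 rows, 19310 had 1 gene symbol, and a gene with several rows was taken from its brightest on average, which left 18377 genes. Groups were compared with limma 3.58.1 under R 4.3.3 (lmFit and eBayes, 1 fit over 4 groups, no covariate). Intervals are 95% intervals of that fit. The members, lists and tests were chosen with earlier results of these data known. Genes of the lists were named as up to 3 called genes with the largest change in each direction per list and comparison whose arrays did not overlap, plus a few chosen for their role. Lists are given by counts and medians. Neighbours and symbols come from the RefSeq gene table of GRCh38.p14, and promoters from RefSeq promoters of that build, with windows for 6 of the 9 measured members. The fit was tested on simulated data. Other settings were moderation with a trend and robustness, fits of just the compared groups or just the HepG2S1 arrays, dropping genes under the 33rd percentile of mean level, scaling to the 75th percentile, repeated quantile normalization, array weights, 3 ways of using the rows of a gene, a threshold of 0.01 on the adjusted p, and omission of single arrays.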

Additional observations from a re-analysis of the deposited data

Results flagged for a closer look

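In HepG2S1 with sorafenib at 20% O2, APOM stood apart on 1 of 4 arrays. The second array read 7.13, while the others read 7.25, 7.26 and 7.25, so that its gap took 0.949 of the group's range, above Dixon's 95% critical value for 4 samples. Of the 9 members tested in this group, 1 passed, and chance passes about 1 in 20 such groups. The gap is small beside the fall of 3.22 log2 units between the lines.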

How the results depend on the processing

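All 9 members stayed lower than HepG2 in each of the 3 HepG2S1 groups under every alternative that tested them, the filter at the 33rd percentile having removed APOH and MTTP, and no member's called value changed sign. Within HepG2S1 the count of members called after withdrawal, 2 in the report, was 1 with trend and robust moderation, the 2 groups alone, 75th percentile scaling or all rows, 0 at an adjusted p of 0.01, and 0 to 1 when 1 array was left out. For 2% O2 with sorafenib against withdrawn cells the count, 3 in the report, was 1 with trend and robust moderation, the 2 groups alone, repeated quantile normalization, all rows or an adjusted p of 0.01, and 1 to 2 when 1 array was left out. For 2% O2 against 20% O2 it was 1 with 75th percentile scaling. Counts of genes called after withdrawal, for oxygen, and for 2% O2 against withdrawn cells were 3303, 2786 and 3412. They became 5231, 4568 and 5178 with array weights and 1970, 1298 and 2049 at an adjusted p of 0.01. With 1 array left out the oxygen count lay between 1598 and 2963, the lowest without the second 2% O2 array, and was 1722 without the first of that group. The other gene counts lay between 2252 and 3149 and between 2475 and 3345. By the olfactory receptor floor 4 members, in place of 2, lay near background. The cause of these shifts was not tested. No paired analysis was possible because the labels give the groups no shared replicate numbers. The number of arrays, 3 or 4 a group, limits the precision, and levels near the floor limit the differences within HepG2S1.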
